A study of Ovis aries with 32 samples.

Results

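Matricellular proteins are secreted into the extracellular matrix, where they mostly do not bear load but tune how cells attach to, assemble and remodel the matrix. Periostin (POSTN) is the best known of them in connective tissue under remodelling, and osteonectin (SPARC), tenascin C (TNC), the thrombospondins THBS1 and THBS2, osteopontin (SPP1) and matrix Gla protein (MGP) belong to the same broad class. Fibronectin (FN1), fibulin 1 (FBLN1) and lysyl oxidase (LOX) build the scaffold these proteins act on, as the fibre onto which other proteins assemble, a glycoprotein of elastic and basement membrane matrix, and the enzyme that cross-links collagen and elastin. Preadipocytes are fibroblast-like and make such a matrix, and it is known to be remodelled as they turn into lipid-storing adipocytes. The 10 genes POSTN, SPARC, TNC, THBS1, THBS2, FN1, LOX, SPP1, FBLN1 and MGP were taken by gene name, with all their 34 transcripts, out of 21271 genes and 35219 transcripts in the deposited table. All 10 passed the filter on low values.

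The cells came from the perirenal fat of near-term fetal sheep and were sequenced either as preadipocytes or after differentiation to adipocytes in culture. The 8 groups were male control (MC), female control (FC), male growth-restricted (MFGR) and female growth-restricted (FFGR) preadipocytes and their differentiated counterparts MCD, FCD, MFGRD and FFGRD, with 4 libraries each and 32 in all. Growth restriction was produced by keeping the pregnant ewes in the heat during part of gestation, which makes the placenta insufficient, whereas control ewes were kept at a cooler temperature on matched feed. The ewes were of a Columbia-Rambouillet cross and carried single fetuses. The labels do not say which libraries came from the same fetus or whether the 4 of a group were separate animals, so p-values measure the spread between these libraries only. A value is the number of normalized reads of a gene, summed over its transcripts, and is not corrected for gene length, so levels are compared between libraries and not between genes.

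The values of a library summed to between 9.52 and 21.2 M (mega), and 1 read was worth between 0.69 and 1.79 of these units. ADIPOQ (adiponectin), FABP4 (a fatty acid carrier) and PLIN1 (which coats lipid droplets) were low in the preadipocyte libraries, with 0 to 216 normalized reads of ADIPOQ. FCD replicate 4, labelled as differentiated, held only 8.59 of ADIPOQ, 215 of FABP4 and 19.0 of PLIN1, all within the preadipocyte range. The other differentiated libraries held 146 to 13421 of ADIPOQ, and MFGRD replicate 4 (146) and FFGRD replicate 4 (175) lay below FFGR replicate 3, the preadipocyte library at 216. DLK1, a defining preadipocyte marker, stayed below 10 in every library, as did CDH5 alone of 6 endothelial markers. These 6 summed to between 28.1 and 190 in the preadipocyte libraries and between 7.02 and 295 in the differentiated ones. ERG, the most abundant of them, had a median of 49.4 in the preadipocyte libraries and 6.60 in the differentiated ones. In 9 libraries the values fell with the genomic span of the transcripts, relative to the mean of the 32 libraries. There the slope on log2 span was below -0.1, for log2 values less each transcript's mean over the libraries. The 9 were MCD replicates 2 and 4, FC replicate 2, FCD replicate 2, MFGR replicate 1, MFGRD replicate 1, FFGR replicates 2 and 3 and FFGRD replicate 3.

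Most of these genes were lower after differentiation. Over the mean of the 4 backgrounds, 6 of the 10 were called lower in differentiated cells and none higher, where 14.8% of the 12737 genes tested were called lower and 12.4% higher. The 6 were POSTN, MGP, THBS2, FBLN1, SPP1 and LOX, and the call required an adjusted p-value below 0.05 (limma on log2 values plus 1, Benjamini-Hochberg over all genes) and a fold change above 1.5. The median log2 fold change of the 10 was -2.09, against 0.04 for all genes tested. The 10 were chosen with earlier results of these data known, so neither the count nor the median is independent of them. TNC, SPARC, FN1 and THBS1 did not pass the test. In bulk RNA, fewer cells that make a transcript and less of it in each cell cannot be told apart.

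**Figure D1:**
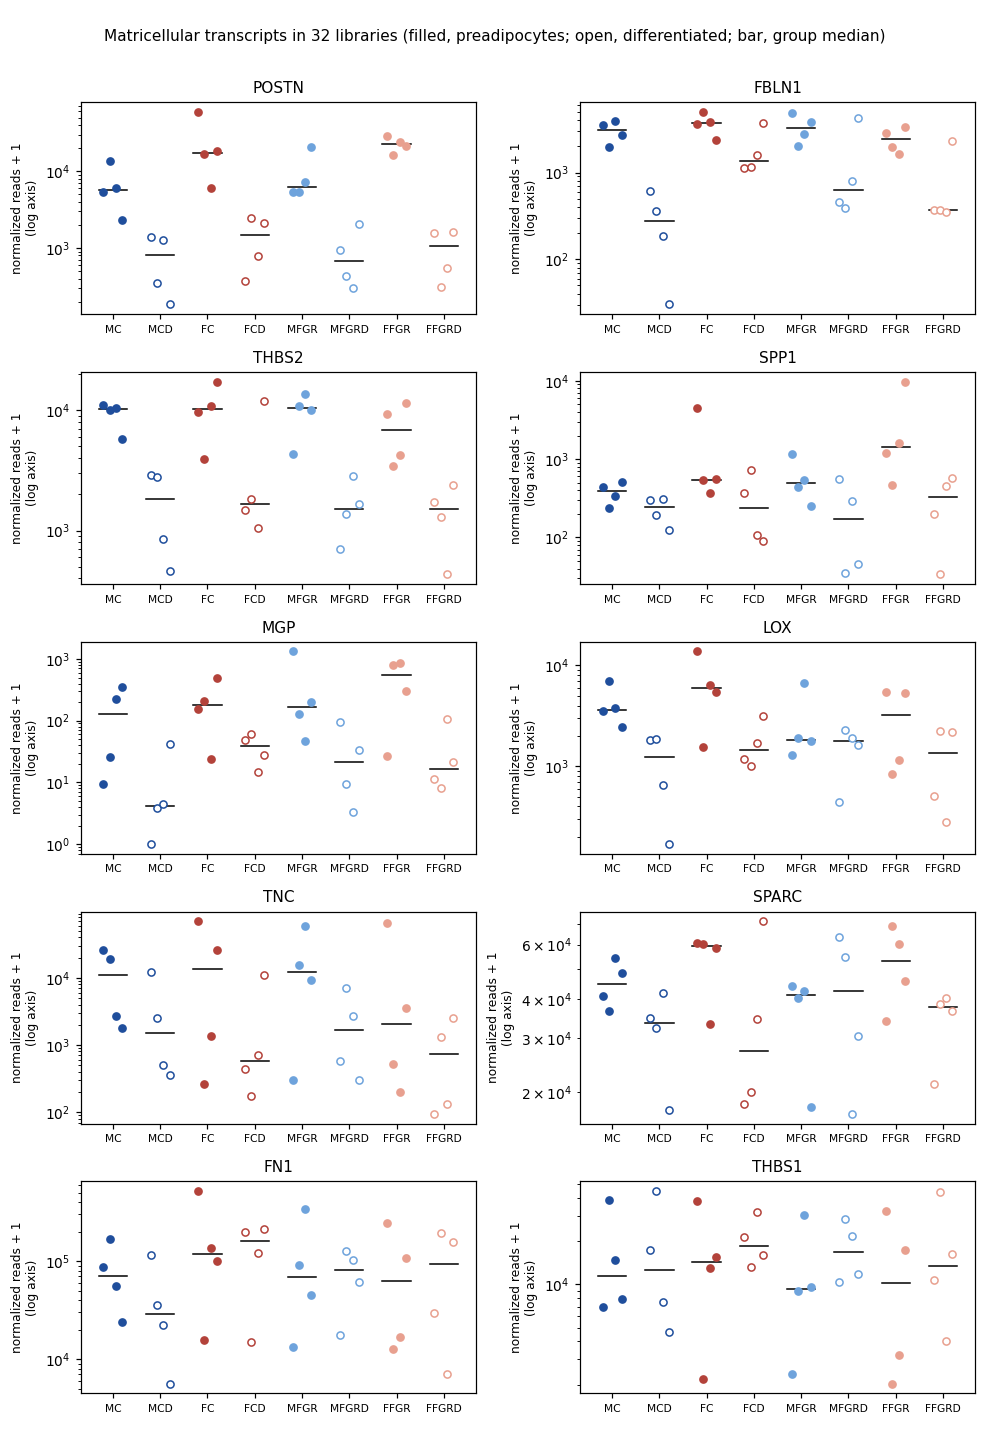
Normalized reads plus 1 of each of the 10 genes on a log axis in the 8 groups, 1 point per library (filled, preadipocytes; open, differentiated) with the group median as a bar. POSTN shows no overlap between the stages in any of the 4 backgrounds, whereas FN1 and THBS1 overlap in all of them.

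POSTN, which binds collagen and integrins, fell the most on the log2 scale among the 10 in the mean of the 4 backgrounds, although in MC alone FBLN1 (-3.97) and MGP (-3.68) had lower values than POSTN (-3.29). The MC preadipocyte libraries held 5406, 13584, 6034 and 2334 normalized reads and the MCD libraries 1390, 347, 1285 and 183. The FC libraries held 59454, 16669, 5958 and 18322, and the FCD libraries 376, 2491, 777 and 2139. Every differentiated library lay below every preadipocyte library of its own background.

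In the growth-restricted animals the pattern was the same. POSTN stood at 5295, 5399, 7232 and 20370 in MFGR and at 930, 427, 297 and 2033 in MFGRD. In FFGR it stood at 28741, 16333, 23780 and 21583, and in FFGRD at 1582, 310, 554 and 1620. Every preadipocyte library thus lay above every differentiated one in each of the 4 backgrounds. The same order held for 1.3% of the genes tested, and singly for 8.46% of genes in MC, 5.15% in FC, 6.31% in MFGR and 6.3% in FFGR. Of the 16 differentiated libraries, 15 lay below all 16 preadipocyte libraries, and the other, FCD replicate 2 at 2491, lay above only the lowest preadipocyte library, MC replicate 4 at 2334.

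Over the 4 backgrounds the mean log2 fold change of POSTN was -3.90 ± 0.386 (SE), 14.9-fold lower after differentiation (limma adjusted p = 1.13e-08). It was -3.29 in MC, -4.02 in FC, -3.52 in MFGR and -4.76 in FFGR, each with an SE of 0.772. POSTN passed the test in all 4, with limma adjusted p-values of 0.00657, 0.00475, 0.00591 and 0.00022. Fitted on the 8 libraries of FC and FCD alone, the same change had an adjusted p of 0.0775. Without the 9 libraries of low span slope, which removes 2 of the 4 MCD libraries, the change in MC was -2.08 with an adjusted p of 0.193. TGFBI, the closest relative of POSTN, fell as well, from a median of 16315 in the 16 preadipocyte libraries to 864 in the 16 differentiated ones, with a log2 fold change of -4.59 (limma adjusted p = 1.27e-07).

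**Figure D2:**
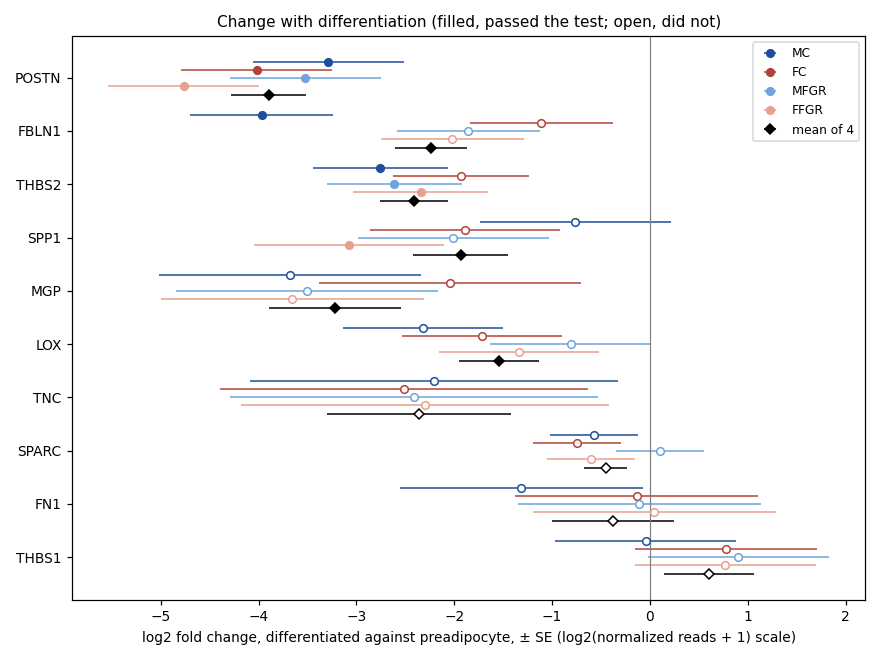
Log2 fold change with differentiation (differentiated against preadipocyte, log2 of normalized reads plus 1) with its SE for each gene in the 4 backgrounds, 4 libraries per group, and for their mean; filled points passed the test. POSTN is the gene whose 4 backgrounds all pass, THBS2 passes in 3, FBLN1 and SPP1 in 1 each, and LOX and MGP only in the mean.

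Fewer genes passed within a single background than in the mean. In MC 3 of the 10 were lower (POSTN, THBS2 and FBLN1, against 4.55% of all genes), in FC 1 (POSTN, against 1.44%), in MFGR 2 (POSTN and THBS2, against 3.1%) and in FFGR 3 (POSTN, THBS2 and SPP1, against 5.99%). None was higher in any background, where 3.8% of all genes were in MC, 1.08% in FC, 2.03% in MFGR and 4.33% in FFGR. With the replicate number as a block, which was taken to pair the stages in MC, FC and MFGR, 5 were lower in MC, adding MGP and LOX (adjusted p 0.00272 and 0.0267). The blocked fit also held the same-numbered libraries of FFGR as pairs, so its adjusted p-values share a spread that includes them. In the same blocked fit 2 were lower in FC, adding THBS2 (adjusted p = 0.018), and 4 in MFGR, adding MGP and SPP1 (adjusted p 0.00526 and 0.0398). The shares of all genes above are those of the fit without the block. The shares with the block are not given here, so these higher counts are not particular to the 10 genes.

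The thrombospondins bind integrins, CD36, CD47 and latent TGF-beta, and of the 2 followed THBS2 passed the test and THBS1 did not. THBS2 stood at 11139, 10002, 10394 and 5713 in MC and at 2917, 2797, 842 and 463 in MCD. It stood at 4346, 10928, 13562 and 9999 in MFGR and at 699, 1374, 2853 and 1669 in MFGRD. The differentiated libraries of both male backgrounds lay below all their preadipocyte libraries.

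In females THBS2 stood at 9737, 3940, 10921 and 17307 in FC and at 1482, 1822, 1057 and 12011 in FCD. It stood at 9382, 3417, 4227 and 11463 in FFGR and at 1738, 1304, 432 and 2389 in FFGRD. The stages separated in FFGR too, and in FC only FCD replicate 4, the library lowest in adipocyte markers, overlapped the preadipocytes. THBS2 was lower by -2.41 ± 0.345 on the log2 scale over the 4 backgrounds (5.32-fold, limma adjusted p = 3.71e-06). By background it changed by -2.75 in MC, -1.93 in FC, -2.61 in MFGR and -2.34 in FFGR (limma adjusted p 0.0107, 0.141, 0.0232 and 0.0276). Without FCD replicate 4 the change in FC was -2.70 (adjusted p = 0.0217), and it also passed with the span slope in the model (0.0137) and with library weights (0.00013). The call in MC was lost without MCD replicate 4 (adjusted p = 0.0624). That in MFGR was lost without MFGR replicate 2, 3 or 4 or MFGRD replicate 1 or 2 (adjusted p 0.0594 to 0.0853), and that in FFGR without FFGR replicate 1 or 4 or FFGRD replicate 2 or 3 (adjusted p 0.0582 to 0.0826), with quantile normalization (0.0535) and on only the libraries compared (0.0938).

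THBS1 did not pass the test in any background. It ranged from 2021 to 38551 normalized reads over the preadipocyte libraries and from 4039 to 44837 over the differentiated ones, so the stages overlapped over almost their whole range. Its mean log2 fold change was 0.60 ± 0.463 (limma adjusted p = 0.357), the only positive mean among the 10.

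TNC, a hexameric glycoprotein of embryonic and healing tissue, had the widest spread. It stood at 26108, 18993, 2726 and 1812 in MC, at 69748, 260, 1360 and 26081 in FC, at 302, 15432, 59454 and 9428 in MFGR and at 66419, 521, 199 and 3579 in FFGR. The differentiated libraries ranged from 92.7 (FFGRD replicate 1) to 12087 (MCD replicate 1), and FCD replicate 4 held 11045 where the other FCD libraries held 173 to 704. The stages overlapped in every background, and the preadipocyte libraries of a single group differed among themselves by more than the stages did.

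On the mean of the backgrounds the log2 fold change of TNC was -2.36 ± 0.941 with an adjusted p of 0.0542 (limma), just outside the threshold. It passed with the replicate number as a block (adjusted p = 0.0141), with quantile normalization (0.0472), with library weights (0.00753), after adding the span slope to the model (0.00943) and without the 9 libraries of low slope (0.0117). The block included the same-numbered libraries of FFGR, where the numbers were not taken to pair the stages. TNC also passed when any of 10 single libraries was left out, with adjusted p-values from 0.0207 to 0.0473. These were MC replicate 4, MCD replicate 1, FC replicates 2 and 3, FCD replicate 4 (0.029), MFGR replicate 1, MFGRD replicate 2, FFGR replicates 2 and 3 and FFGRD replicate 4. Each was the highest for TNC in its differentiated group or among the lowest in its preadipocyte group. Leaving it out therefore enlarges the fall by construction. No background passed on its own, with adjusted p-values of 0.507 to 0.614.

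FBLN1 had the widest range of log2 fold changes between backgrounds, from -3.97 to -1.11, and the difference between male and female control cells in this response was not tested. In MC it stood at 3530, 1977, 3932 and 2721 and in MCD at 617, 360, 185 and 29.1. In FC it stood at 3617, 5018, 3845 and 2393 and in FCD at 1125, 1165, 1577 and 3712. The male control stages were far apart, while in females FCD replicate 4 reached the preadipocyte range.

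The growth-restricted groups each held 1 differentiated library at the preadipocyte level. FBLN1 stood at 4870, 2038, 2752 and 3833 in MFGR and at 453, 392, 806 and 4223 in MFGRD, and at 2855, 1954, 1627 and 3327 in FFGR and 370, 373, 353 and 2280 in FFGRD. Over the backgrounds the mean log2 fold change was -2.24 ± 0.365 (4.72-fold lower, limma adjusted p = 2.29e-05). It was -3.97 in MC (adjusted p = 0.000845) and did not pass in FC at -1.11 (0.528), MFGR at -1.86 (0.155) or FFGR at -2.02 (0.0767). Without MFGRD replicate 4 the change in MFGR was -2.61 (adjusted p = 0.0305), and without FFGRD replicate 4 that in FFGR was -2.68 (adjusted p = 0.0191). The latter also passed with the span slope in the model (0.0309).

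The FBLN1-rich differentiated libraries were also the ones with the least ADIPOQ. FCD replicate 4, MFGRD replicate 4 and FFGRD replicate 4 held 8.59, 146 and 175 normalized reads of ADIPOQ, the 3 lowest of the 16 differentiated libraries. They held 3712, 4223 and 2280 of FBLN1, the 3 highest. They also held 2139, 2033 and 1620 of POSTN, above every other differentiated library except FCD replicate 2 at 2491. The part that incomplete differentiation has in these levels was not tested.

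**Figure D3:**
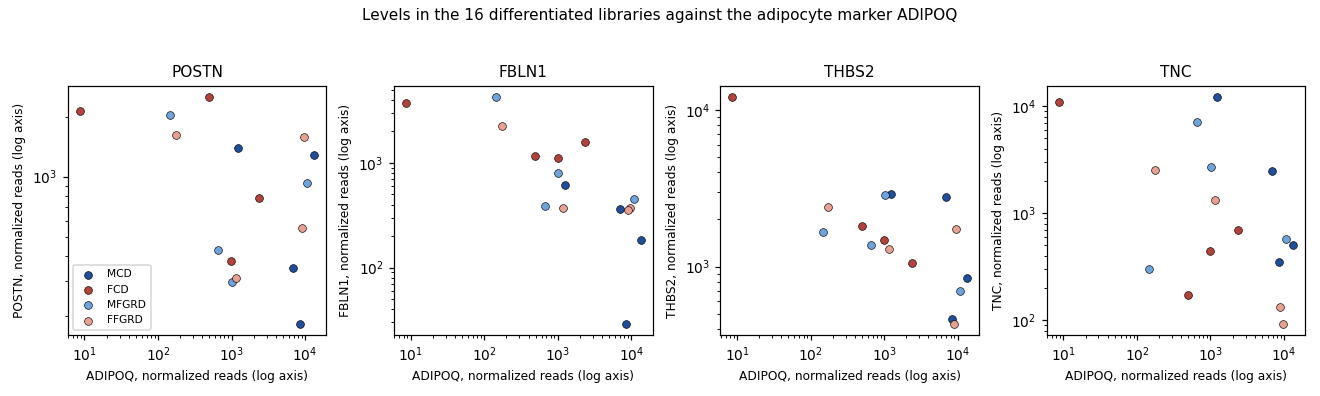
Normalized reads of POSTN, FBLN1, THBS2 and TNC against those of ADIPOQ in the 16 differentiated libraries, both on log axes, coloured by group. The 3 libraries with ADIPOQ at 175 or less hold the 3 highest FBLN1 values, and the one at 8.59 (FCD replicate 4) also stands highest for THBS2 at 12011.

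LOX stood at 3538, 7058, 3757 and 2442 in MC and at 1831, 1840, 653 and 167 in MCD, with no overlap. It stood at 13772, 1544, 6383 and 5456 in FC and at 1169, 1014, 1700 and 3143 in FCD. In the growth-restricted groups it ranged from 834 to 6685 in the preadipocytes and from 277 to 2283 in the differentiated cells, and the stages overlapped in both sexes. The mean log2 fold change was -1.55 ± 0.41 (2.92-fold lower, limma adjusted p = 0.00427), and no background passed on its own (adjusted p 0.0799 in MC, 0.309 in FC, 0.734 in MFGR and 0.348 in FFGR). Without MCD replicate 1 the change in MC was -2.73 (adjusted p = 0.0442). With the span slope in the model LOX passed in MC (0.0337), FC (0.0284) and FFGR (0.0221), with library weights in MC (0.005) and FC (0.00747), and with the replicate block in MC (0.0267).

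FN1 gave no detectable change. It ranged from 12695 to 517268 normalized reads over the preadipocyte libraries and from 5603 to 214595 over the differentiated ones. The mean log2 fold change was -0.38 ± 0.62 (limma adjusted p = 0.698). Its level went with the genomic span slope of the libraries: of the 9 libraries of low slope, 8 lay below each of the other 23. Libraries of low slope also had more ADIPOQ by median, 8436 against 1011.5 in the differentiated and 72.0 against 7.82 in the preadipocyte libraries. These ADIPOQ ranges overlapped, and the part of either in the FN1 level was not tested.

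The association with the slope was strongest for 6 of the 10 genes. The correlation of the deviations from the group means with the slope over the 32 libraries was r = 0.84 for FN1, 0.75 for LOX, 0.72 for THBS1, 0.65 for THBS2, 0.63 for TNC and -0.68 for MGP. For POSTN it was 0.21, for FBLN1 0.27, for SPARC -0.28 and for SPP1 -0.09. Among the preadipocytes TNC had a median of 281 in the 4 libraries of low slope and 17212 in the other 12, and these ranges did not overlap (199 to 521 against 1360 to 69748). Nor did those of FN1, LOX, THBS1 and THBS2, each lower in the libraries of low slope. The share of all genes with ranges apart in this way is not given here. FN1, LOX, THBS1 and TNC also moved together: FN1 and LOX had r = 0.92 over the 32 libraries, and 0.80 once the slope was taken out, although all these points share the same libraries and normalization. Once the slope was added to the model, the same 6 genes were lower in the mean and TNC joined them.

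**Figure D4:**
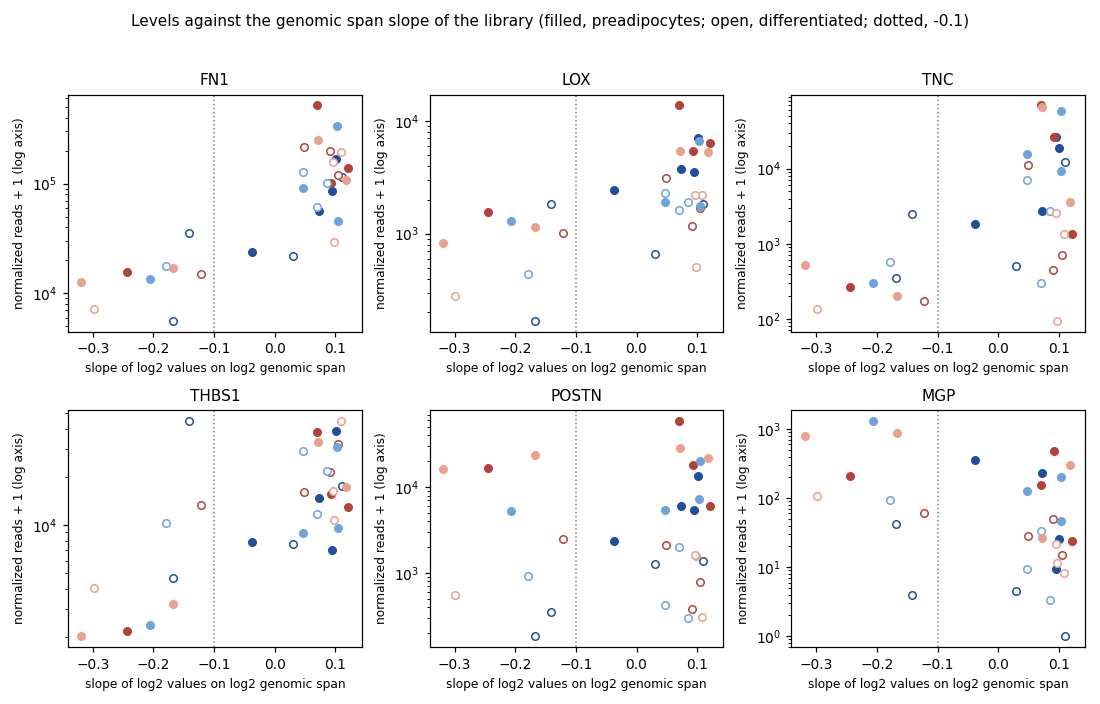
Normalized reads plus 1 on a log axis against the slope of each library's log2 values, less each transcript's mean over the libraries, on log2 genomic span, for 6 genes and 32 libraries (filled, preadipocytes; open, differentiated; dark blue MC, red FC, light blue MFGR and pink FFGR). FN1, LOX, TNC and THBS1 are low and MGP is high in many of the 9 libraries left of the dotted line at -0.1, and POSTN differs by stage on both sides of it.

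SPP1, a phosphoprotein ligand of integrins and CD44, fell over the mean of the backgrounds by -1.93 ± 0.487 on the log2 scale (3.82-fold, limma adjusted p = 0.00272). In FFGR it stood at 1209, 471, 1621 and 9751 and in FFGRD at 201, 32.9, 456 and 574. FFGR replicate 4, the highest of all 32 libraries, was also the highest for the scarce macrophage markers PTPRC at 55.8, CSF1R at 36.3, AIF1 at 37.6 and TYROBP at 23.0. It was not the highest for CD14, the most abundant of the 7 macrophage markers listed. CD14 was at most 162 in any preadipocyte library and reached 699 in a differentiated one. No other library exceeded 20 for PTPRC, AIF1 or TYROBP, and the part of macrophages in the SPP1 level was not tested.

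The 7 macrophage markers summed to between 88.4 and 1061 in the preadipocyte libraries, the highest in FFGR replicate 4, and to between 122 and 943 in the differentiated ones. CD14 rose and CD68 fell with differentiation, while PTPRC, CSF1R and TYROBP stayed below 10 in every differentiated library. The change of SPP1 in FFGR was -3.07 (limma adjusted p = 0.0406) and -2.24 without FFGR replicate 4 (adjusted p = 0.138). The call was also lost without FFGR replicate 1 or 3 or FFGRD replicate 1 or 2 (adjusted p 0.0512 to 0.2), with no filter beyond a value of 1 (0.0555) and on only the libraries compared (0.215). In FC, replicate 1 held 4487 and the other 3 held 367 to 550, against 88.5 to 734 in FCD. The stages overlapped in every background, and SPP1 did not pass in MC at -0.76 (adjusted p = 0.70), FC at -1.89 (0.361) or MFGR at -2.01 (0.284).

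MGP, an inhibitor of calcification that needs vitamin K, had its lowest group median in MCD, at 0, 2.89, 3.47 and 41.5 normalized reads, where MC held 8.53, 24.7, 227 and 356. FC held 152, 206, 22.7 and 486 and FCD 48.3, 60.5, 13.8 and 27.1. MFGR held 1323, 127, 45.7 and 200 and MFGRD 93.0, 8.35, 2.34 and 32. The stages overlapped in each of these backgrounds, although the differentiated library was the lower one in every same-numbered pair.

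FFGR held 25.3, 785, 864 and 300 of MGP and FFGRD 10.5, 7.12, 106 and 20.5. On average MGP had a log2 fold change of -3.22 ± 0.672 (9.32-fold lower, limma adjusted p = 0.000444), but no background passed on its own (-3.68 in MC, -2.04 in FC, -3.50 in MFGR and -3.65 in FFGR, adjusted p 0.0831 to 0.528). The change in MC passed without MC replicate 1 (adjusted p = 0.0471) or MCD replicate 4 (0.0431), and that in FFGR without FFGR replicate 1 (0.0239) or FFGRD replicate 3 (0.0403). With the replicate block MGP passed in MC (0.00272) and MFGR (0.00526), where the numbers were taken to pair the stages. Over all 4 backgrounds it was lower after differentiation in 16 of 16 same-numbered pairs, as were POSTN and THBS2. These include the pairs of FFGR, where the numbers were not taken to pair the stages, and the share of all genes was not counted. With the span slope in the model MGP passed in MC (0.00255), MFGR (0.0159) and FFGR (0.0362), and with library weights in MFGR (0.033). Several MGP values amounted to a few reads.

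SPARC, which binds collagen and is known to restrain adipogenesis, did not pass the test. It ranged from 17947 to 68772 over the preadipocyte libraries and from 17027 to 71320 over the differentiated ones. The highest was FCD replicate 4. The mean log2 fold change was -0.45 ± 0.223 (limma adjusted p = 0.124). Without FCD replicate 4 it was -0.55 with an adjusted p of 0.0436, which is still short of the fold change of 1.5 that a call required.

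At the level of single transcripts, 29 of the 34 were tested, 12 were lower and none higher, where 19.8% of the 19469 transcripts tested were called in either direction. All 5 tested transcripts of POSTN were lower, from -3.34 ± 0.511 for POSTN-203 to -4.61 ± 0.441 for POSTN-201 (limma adjusted p 1.75e-05 and 1.53e-08). POSTN-201 held 36.5% ± 8.54 (SD, n = 16) of the POSTN reads in the preadipocyte libraries and 24.4% ± 11.4 in the differentiated ones, and POSTN-202 held 37.6% ± 5.68 and 45.1% ± 9.19. In no single background did the share of POSTN-201 pass an exact two-sided permutation test, the lowest p being 0.0571 in MC.

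The single transcripts of LOX, MGP, SPP1 and THBS2 were lower, as were both tested transcripts of FBLN1. Of the 9 tested transcripts of TNC only TNC-205 was lower, at -3.93 ± 1.23 (limma adjusted p = 0.0205), and TNC-207 stood at 0.67 (0.825). None of the 6 tested transcripts of FN1, the 2 of SPARC or the 1 of THBS1 passed. How Salmon divides reads between transcripts that share exons is an estimate, and the shares carry that error.

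**Figure D5:**
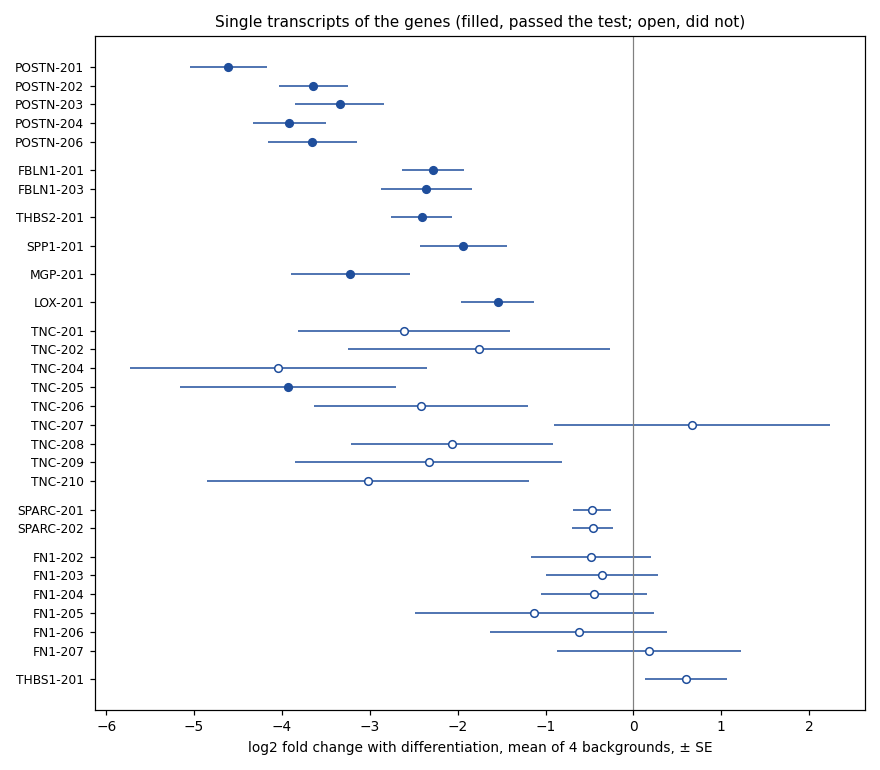
Log2 fold change with differentiation over the mean of the 4 backgrounds, with its SE, for the 29 tested transcripts of the 10 genes; filled points passed the test. All 5 POSTN transcripts lie between -4.61 and -3.34, whereas those of TNC spread from -4.04 to 0.67 and only TNC-205 passed.

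No effect of growth restriction passed the test (limma) for any of the 10 genes, and none of the 12737 genes tested was called (0%). Between growth-restricted and control preadipocytes, over both sexes, no member had an unadjusted p below 0.05 where 344 of all genes did, and the median log2 difference of the 10 was -0.27. Between the differentiated cells no member did either, where 136 of all genes did. Within a sex and stage, FBLN1 was the only one with an unadjusted p below 0.05. It was higher in MFGRD than in MCD by 2.23 ± 0.73 on the log2 scale (limma adjusted p = 1) and lower in FFGRD than in FCD by -1.53 ± 0.73 (limma adjusted p = 1). The response of the 10 genes to differentiation did not differ detectably between growth-restricted and control cells, with an unadjusted p below 0.05 over both sexes for 0 of the 10 and for 132 of all genes. FBLN1 came nearest, with a male difference in response of 2.11 ± 1.03 (limma adjusted p = 0.995).

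Nor did an effect of sex pass for any of them by limma, and again 0% of all genes were called. Unadjusted p-values below 0.05 numbered 2 of the 10 in preadipocytes, where 550 of all genes had one, and 1 of the 10 in differentiated cells, where 159 did. In the mean of control and growth-restricted preadipocytes the largest difference was that of POSTN, while in the growth-restricted ones alone SPP1 (-1.75) and TNC (1.68) differed more. POSTN ranged from 2334 to 20370 in the 8 male libraries and from 5958 to 59454 in the 8 female ones. Males were lower by -1.57 ± 0.546 on the log2 scale (limma adjusted p = 0.846), with -1.68 between MC and FC and -1.46 between MFGR and FFGR. In FFGR all 4 libraries lay above 3 of the 4 MFGR libraries and the 4 MC libraries, although FFGR replicate 2 at 16333 lay below MFGR replicate 4 at 20370. SPP1 was lower in male preadipocytes by -1.47 ± 0.688 (limma adjusted p = 0.846).

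Among control adipocytes, FBLN1 held 29.1 to 617 normalized reads in MCD and 1125 to 3712 in FCD. The share of all genes whose ranges were apart in this comparison was not counted, and 551 of 12737 had an unadjusted limma p below 0.05. The difference was -3.15 ± 0.73 on the log2 scale (limma adjusted p = 0.594), the fourth smallest p of all genes, and without MCD replicate 1 it was -3.72 with an adjusted p of 0.0363. In the growth-restricted adipocytes the sexes overlapped for FBLN1 (392 to 4223 in males and 353 to 2280 in females).

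The relatives and partners of these genes were counted in lists by family and role, and the counts are for the mean change with differentiation, in which 14.8% of all genes tested were called lower and 12.4% higher. The lists hold the 10 genes themselves, so their counts are not independent of those above, and none was tested for enrichment. Of the list genes called, 11 reached 10 normalized reads in fewer than 4 of the 16 libraries of one stage (CCN5, CCN6, CD163, CIDEC, ERG, KDR, LOXL4, OMD, PCK1, TLL1 and TNN). They passed the filter on low values largely through the stage where they were high, which favours that direction, and are left out of the calls below. Among the 7 tested genes of the SPARC family, SPOCK1, SPARCL1 and SMOC2 fell and SMOC1 rose, from a median of 48.4 to 682 normalized reads. THBS3 fell with THBS2 among 5 thrombospondins, and both periostin family genes fell. Of the tenascins, TNN was listed at 0 in all 16 preadipocyte libraries and reached 151 in FCD replicate 4, and its median in differentiated cells was only 3.49. Of 4 CCN genes, CCN1 rose and CCN2 fell, CCN2 from a median of 4706 to 824.

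Of 6 fibulins tested, FBLN1, FBLN5 and EFEMP2 fell and HMCN1 rose. Of 8 lysyl oxidases and the enzymes that activate them, LOX, LOXL1, LOXL3, PCOLCE and PCOLCE2 fell. Of 11 fibrillins, elastin and microfibril proteins, 7 fell (EMILIN1, MFAP2, MFAP4, MFAP5, LTBP2, LTBP3 and LTBP4) and LTBP1 rose, and of 9 small leucine-rich proteoglycans 7 fell (ASPN, BGN, DCN, FMOD, LUM, PODN and PRELP). FMOD had the largest fall of these proteoglycans at -4.63 ± 0.55 (limma adjusted p = 2.42e-07), and DCN, the one with the most reads, fell by 1.28 on the log2 scale. Among 5 genes of the Gla proteins and the vitamin K cycle, MGP, PROS1 and GAS6 fell and VKORC1L1 rose. SPP1, which fell, was the only gene tested of its 5-gene family.

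Of 12 receptors tested, CD36, SDC4 and DDR1 rose and ITGA9 fell, and 8, among them ITGB1, ITGAV and ITGA5, did not pass the test, where 27.2% of all genes were called in either direction. CD36 takes up fatty acids besides binding thrombospondin, and it rose from a median of 15.1 to 1990. Across these lists no gene was called in any comparison of growth restriction, sex or response.

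Markers of other cell types were counted in the same comparison, against the same 14.8% and 12.4% of all genes. Of 8 adipocyte markers tested ADIPOQ, FABP4, PLIN1, LPL, CEBPA and PPARG rose. Of 6 preadipocyte and fibroblast markers PDGFRB fell and THY1 rose. Of 5 smooth muscle and pericyte markers ACTA2, CNN1 and DES fell, and their list of 6 summed to between 6241 and 60003 in the preadipocyte libraries and between 703 and 15413 in the differentiated ones. None of 3 mesothelial, 2 epithelial and 3 osteoblast and cartilage markers passed, and mesothelial and epithelial sums were highest in FC replicate 3 at 1609 and 628. The part of these cell types in the 10 genes' levels was not tested.

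The genes whose deviations from the group means were most like those of POSTN over the 32 libraries were PAX8 (Pearson's r = 0.63), ENSOARG00020002976 (0.62), ALOX12 (0.60), STOML1 (0.60) and ENSOARG00020009349 (0.60), of 12736 compared. Of the other 9 genes, FBLN1 was the most like it at 0.46 and THBS2 followed at 0.31. POSTN lies on chromosome 10 at 26662568 to 26696371 of Oar_rambouillet_v1.0, and THBS2 on chromosome 8 at 97821907 to 97848702. FBLN1 and MGP share chromosome 3, SPARC and LOX chromosome 5, and FN1 and TNC chromosome 2, without being neighbours.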

How the data were processed

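Gene members and lists were chosen with earlier results of these data known. Reads whose mean Phred score was under 34 were dropped by the authors, who checked quality with FastQC 0.11.9 per the submitters' processing notes, and quantified the Ensembl transcripts of Oar_rambouillet_v1.0 with Salmon. The deposited signal of each transcript and library is the read count that the authors normalized with DESeq2, not whole reads. The deposited fold, p-value and adjusted p-value columns are the authors' own comparisons, and the group means are theirs too. None of these were used.

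Values were summed per gene and fitted as log2(value + 1) with limma 3.58.1 (trend, R 4.3.3, 8 group means over all 32 libraries) for the 12737 genes that reached 10 in 4 or more libraries. Calls had a Benjamini-Hochberg adjusted p under 0.05 and a fold over 1.5. All adjusted p-values are limma's, and fold changes are on this scale, which understates those of low genes. Named are the 10 members, the list genes called or most abundant, and the 5 genes most like POSTN; other genes were chosen after their values were seen. On simulated data, 47.8%, 91% and 93.9% of genes with a log2 change of 1, 2 and 3 were recovered in the mean over 4 backgrounds (12471 genes). There the noise was independent between genes and 12271 genes were unchanged, so recovery in the real libraries can differ. Single backgrounds were not simulated. The libraries held about 7.76 to 21.5 M (mega) reads (median 13.3).

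The labels number the libraries of each group from 1 to 4. Same-numbered libraries of the 2 stages deviated together in every pair of MC (r 0.162 to 0.615), FC (0.303 to 0.508) and MFGR (0.393 to 0.671). In FFGR r was over 0.1 in 3 of 4 pairs (-0.398 to 0.565). The numbers were taken to pair the stages in MC, FC and MFGR only, which the labels do not state. The replicate block of the differentiation fits nevertheless covered all 4 backgrounds, FFGR included. Alternatives were other pseudocounts, quantile normalization, other filters, fewer libraries, library weights, the span slope, the replicate block and each library left out. Leaving out the 9 libraries of low span slope was chosen after seeing the data, as were the tests of transcript shares. No sequence is printed.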

Additional observations from a re-analysis of the deposited data

Results flagged for a closer look

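In 80 sets of 4 libraries (10 genes in 8 groups), 14 held a library far from the other 3 by Dixon's criterion in normalized reads, 12 of them on the high side. Chance alone gives about 1 in 20 for normally distributed values, which reads are not. On the log2(value + 1) scale, added after seeing the data, 6 sets did, and 4 of these were among the 14 (SPARC in FC and MFGR, SPP1 in FC and FBLN1 in FFGRD). POSTN was high in MFGR replicate 4 at 20370, against 5295 to 7232 in the others. SPARC was low in FC replicate 3 at 33345, against 58346 to 60889, and in MFGR replicate 4 at 17947, against 40305 to 43968. TNC was high in FCD replicate 4 at 11045 and in FFGR replicate 1 at 66419, against 199 to 3579 in the other FFGR libraries.

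THBS2 was high in FCD replicate 4 at 12011, and LOX in MFGR replicate 3 at 6685, against 1300 to 1907. SPP1 was high in FC replicate 1 at 4487 and in FFGR replicate 4 at 9751. FBLN1 was high in MFGRD replicate 4 at 4223 and in FFGRD replicate 4 at 2280. MGP was high in MCD replicate 4 at 41.5, in MFGR replicate 1 at 1323 and in FFGRD replicate 3 at 106, and these 3 libraries are among the 9 of low span slope.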

How the results depend on the processing

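No log2 fold change of the 10 genes that passed the test changed sign under any alternative. The count of genes called lower in the mean of the 4 backgrounds stayed between 6 and 7. Within single backgrounds it moved more. The share of all genes called under each alternative is not given here, so a higher count below is not a result about the 10 genes alone. Fitted on only the libraries compared, 0 were called in FC and 1 in FFGR. Library weights gave 3 in FC. With the span slope in the model the counts were 5 in MC, 3 in FC and 6 in FFGR. With the replicate block they were 5 in MC, 2 in FC, 4 in MFGR and 5 in FFGR. In FFGR the numbers were not taken to pair the libraries. With the block and the slope together they were 5 in FC, 4 in MFGR and 5 in FFGR. Beyond the calls given with the results, the replicate block changed no call in the mean of the backgrounds, and it left the counts for growth restriction, sex and response at 0. Same-numbered libraries of the 2 stages matched each other best in 13 of 16 cases.

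Without the 9 libraries of low span slope, 3 genes were called in FC. Leaving out each library in turn gave 3 to 4 in MC, 1 to 2 in FC, 1 to 3 in MFGR, 1 to 4 in FFGR (lowest without FFGR replicate 4 or FFGRD replicate 2) and 0 to 1 between MCD and FCD. The cause of these changes was not tested, apart from the fewer libraries that some settings leave. For the mean of the backgrounds and the pooled response, the libraries compared are all 32, so that setting gives no other value. Depth limits MGP, which was at a few reads in several libraries.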
